A study of Gallus gallus with 5 samples.

Results

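The chicken blastoderm is the disc of embryonic cells that lies on the yolk when an egg is laid. It consists of the epiblast, which gives rise to the embryo proper, the forming hypoblast beneath it, and an outer ring that spreads over the yolk. Development pauses while the egg is kept cool and resumes at incubation temperature, when the hypoblast spreads, cells are drawn towards the posterior midline and the primitive streak, the route by which cells enter the mesoderm and endoderm, begins to form. The comparison described here sets blastoderms incubated for 4 h at 37 °C against unstored blastoderms, which are 2 of the 5 libraries of a poly(A) RNA sequencing series of Gallus gallus. The other libraries came from blastoderms kept for 7 days at 4, 16 or 24 °C and are used only to place the incubated library among all of them. The labels name no breed, sex, stage or transgene for any group. They give neither the number of blastoderms in each library nor whether the incubated eggs had been stored beforehand.

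Expression is in FPKM, fragments scaled to the length of the transcript and to the mapped fragments of the library, as deposited by the authors, so levels are per length and can be set side by side between genes. Rows were named through RefSeq accessions and summed per gene symbol, which gave 10102 genes, and 7389 of them, with FPKM of at least 1 in the incubated or the unstored library and above 0 in both, were compared. The measure is the log2 ratio of FPKM + 1, incubated to unstored, which understates the change of genes with low FPKM. A gene is called higher or lower here when this ratio reaches 2-fold, that is 1 on the log2 scale. A gene under 1 FPKM in the incubated or the unstored library entered only through the other one, so the entry rule fixed its direction. Each condition had 1 library, so no value has a replicate check, an error or a test, and every difference lies between these libraries. FPKM summed to 360456 in the incubated and 366057 in the unstored library, and 7220 genes in the incubated library and 6928 in the unstored library reached 1 FPKM. The read depth behind the values is unknown.

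After 4 h of incubation, 653 genes were higher (8.84% of the genes compared) and 195 were lower (2.64%). The median log2 ratio of all genes lay slightly above 0, at 0.12, with quartiles at -0.25 and 0.53. Higher genes made up 77.0% of all genes past 2-fold. With median-ratio size factors, which remove the shift of the median, 503 genes were higher and 284 lower, and the share of higher genes was 63.9%. In a tissue with several cell types, fewer cells of a type and less RNA per cell cannot be told apart, and this holds for every gene below.

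The ratio depended on the level of the gene. The genes were divided into 10 level bins of equal size by their mean FPKM in the incubated and unstored libraries. In the lowest bin (0.525 to 1.73 FPKM) the median ratio was 0.36, and in the third (3.36 to 5.86 FPKM) it was 0.38. From there it declined with each bin to -0.15 in the highest, which began at 70.5 FPKM. Higher genes made up 17.1% of the third bin and 1.76% of the highest, whereas lower genes made up between 1.89% and 3.52% of every bin. Genes with a mean FPKM under 10 were 69.2% of the higher genes, 49.2% of the lower genes and 42.3% of all genes compared. When each ratio was taken relative to the median of its own level bin, 345 genes were higher and 339 lower (50.4% higher). The excess of higher genes therefore lay among genes of low and middle level, and the part that library preparation or depth plays in it was not tested. For this reason each list below is given with its median and, where the level matters, with its median relative to the level bins of its members. Counts of higher and lower members are to be read beside the shares over all genes compared, 8.84% and 2.64%. A count near those shares is not a result about the list. The lists were chosen with earlier results of these data known, so the order of lists by median or count is only a description.

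**Figure D1:**
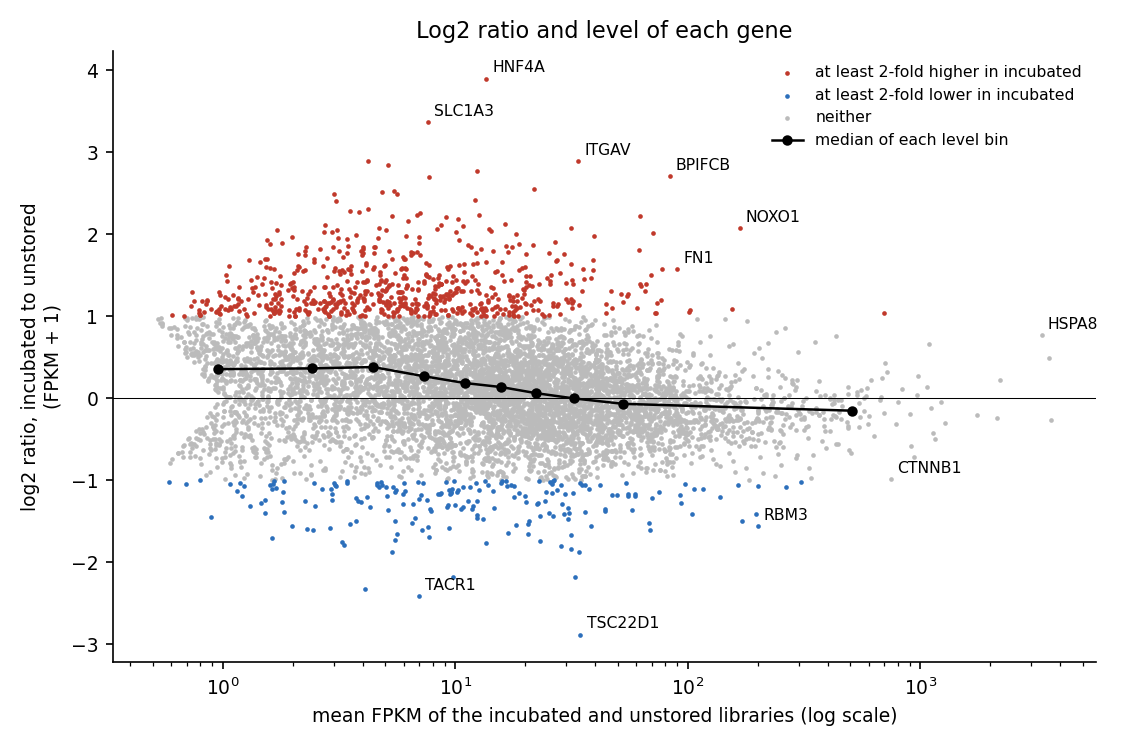
Each point is 1 of 7389 genes, with the mean FPKM of the incubated and unstored libraries on a log x axis and the log2 ratio of FPKM + 1, incubated to unstored, on the y axis. Red points are the 653 higher genes, blue points the 195 lower genes, and the black line joins the medians of the 10 level bins, which are 0.36 at the left end and -0.15 at the right end.

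Genes of the sex chromosomes differed as groups. Female chickens carry a Z and a W chromosome and males a pair of Z chromosomes, and the RefSeq table gives the chromosome of each gene. All 16 compared W genes had a ratio below 0, with a median of -0.61, and 6 of them (37.5%) were lower. HINTW, a W-linked copy of a histidine triad gene, had 16.6 FPKM in incubated and 45.3 in unstored blastoderms. ATP5F1AW, the W copy of an ATP synthase subunit, had 24.2 FPKM in incubated and 64.2 in unstored blastoderms, and HNRNPKL, a W copy of an RNA-binding protein gene, had 14.5 FPKM in incubated and 48.3 FPKM in unstored blastoderms. HINTW, ATP5F1AW and HNRNPKL can share reads with related copies, and ENS-1, also counted among the W genes, with a multicopy family. These genes are therefore uncertain, and the same may hold for other W genes. The 423 Z genes had a median of 0.44, with 322 (76.1%) above 0, 60 higher (14.2%) and 8 lower (1.89%). The 6950 other genes had a median of 0.11, with 57.7% above 0, 593 higher (8.53%) and 181 lower (2.6%). The libraries thus differed in Z and W RNA in opposite directions, and the share of female and male embryos in each library is not given. Against the same unstored library the 3 stored libraries gave Z medians between 0.08 and 0.11 and W medians of -0.14 (4 °C), -0.63 (16 °C) and 0.01 (24 °C). This grouping was chosen after the values were seen. The part that the sex of the embryos plays in any Z-linked gene below was not tested, and Z-linked genes are marked as such.

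**Figure D2:**
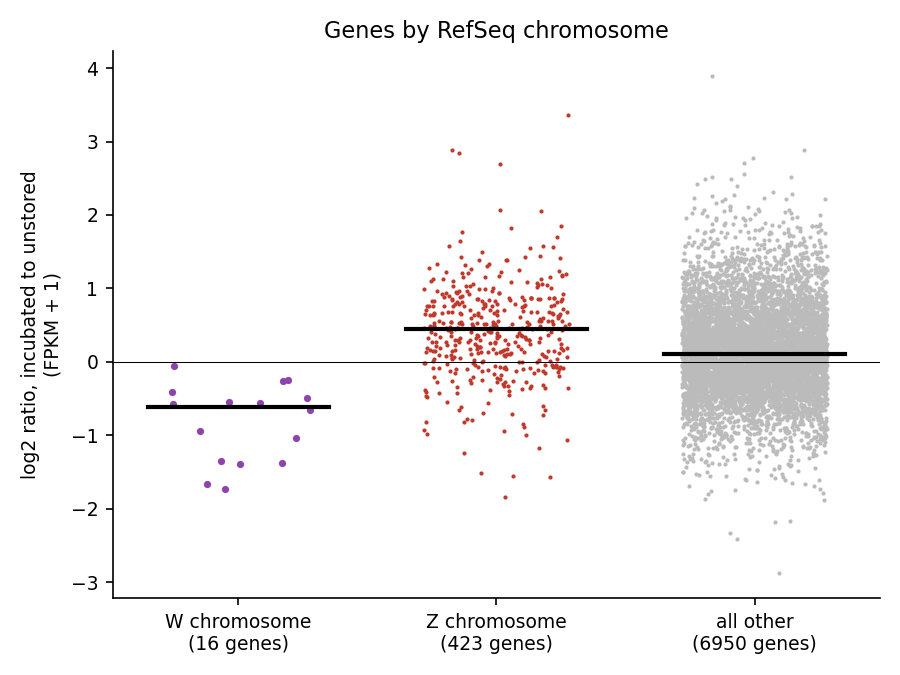
Each point is a gene, grouped by its chromosome in the RefSeq table, with its log2 ratio of FPKM + 1, incubated to unstored, on the y axis, and black bars are medians. The W genes all lie below 0 (median -0.61), the Z genes lie mostly above 0 (median 0.44), and the other genes centre on 0.11.

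The epiblast markers NANOG, EPCAM, SOX3 and CDH1 were present in both libraries. NANOG, the transcription factor of the pluripotent epiblast, had 357 FPKM in incubated and 526 FPKM in unstored blastoderms (log2 ratio -0.56). EPCAM, an epithelial adhesion protein, had 391 FPKM in incubated and 620 FPKM in unstored blastoderms (-0.66). SOX3, a transcription factor of epiblast and early neural plate, had 55.6 FPKM in incubated and 103 FPKM in unstored blastoderms (-0.88). All of these were below 2-fold. SOX2, a later neural plate gene in the chick, was under 1 FPKM in both libraries. Of the hypoblast markers, FOXA2, SOX17 and HHEX were present in both libraries, but HNF4A and CER1 were under 1 FPKM in unstored blastoderms. Of the markers of ectoderm in the outer ring, GATA2, TFAP2A and DLX5 were above 1 FPKM in both libraries and GATA3 was under 1 FPKM in both.

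Of 16 compared epiblast genes, 1 was higher and 2 were lower, with a median of -0.05. OTX2, a homeobox gene of the hypoblast and the anterior epiblast, had 19.7 FPKM in incubated and 52.8 FPKM in unstored blastoderms (-1.38). TFAP2C, an AP-2 transcription factor, had 82.7 FPKM in incubated and 192 FPKM in unstored blastoderms (-1.2). PODXL, a sialomucin of the apical membrane, was the higher one, with 18.6 FPKM in incubated and 6.48 FPKM in unstored blastoderms (1.39). The epiblast genes did not move as a block. SALL4, a zinc finger factor of pluripotent cells, had 307 FPKM in incubated and 174 FPKM in unstored blastoderms (0.81), while the de novo DNA methyltransferase DNMT3B had 352 FPKM in incubated and 517 FPKM in unstored blastoderms (-0.55). Of 8 compared early neural genes, NCAM1 (1.2), a neural cell adhesion molecule, was higher and OTX2 was lower, with a median of -0.12. Of 16 genes of the extra-embryonic ectoderm and non-neural border, 3 were higher and 2 lower, with a median of 0.11. VGLL1, a TEAD cofactor, was lower, with 6.22 FPKM in incubated and 17.3 FPKM in unstored blastoderms (-1.34), and GRHL2, a regulator of epithelial barriers, was higher, with 36.9 FPKM in incubated and 15.9 FPKM in unstored blastoderms (1.17).

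Genes of the hypoblast and endoderm gave the largest single ratio. HNF4A, a nuclear receptor of visceral endoderm and liver, had 26.3 FPKM in incubated and 0.83 FPKM in unstored blastoderms (3.90). Of 18 compared genes of this list, 8 were higher and 1, OTX2, was lower, with a median of 0.53. APOA1, the main apolipoprotein of high-density lipoprotein, had 103 FPKM in incubated and 21.4 FPKM in unstored blastoderms (2.22). CER1, a Z-linked gene for a secreted antagonist of Nodal, had 8.18 FPKM in incubated and 0.24 FPKM in unstored blastoderms (2.89). FOXA2 (33.6 FPKM in incubated and 12.2 FPKM in unstored blastoderms, 1.39) and SOX17 (15.1 FPKM in incubated and 5.35 FPKM in unstored blastoderms, 1.34), both endodermal transcription factors, were also higher. After storage at 4, 16 and 24 °C, FOXA2 had 29.5, 9.56 and 15.4 FPKM and SOX17 had 14.6, 4.73 and 12.8 FPKM. Both were near the incubated level at 4 °C, so these differences were not particular to the incubated library. The list was not uniform. HHEX (6.44 FPKM in incubated and 8.53 FPKM in unstored blastoderms, -0.36), a hypoblast homeobox gene, and GATA5 (23.0 FPKM in incubated and 31.4 FPKM in unstored blastoderms, -0.43), a GATA factor of endoderm and heart, stood slightly below 0.

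Genes of the primitive streak and mesoderm had a median of 0.68 over 19 compared members, with 8 higher and none lower. MIXL1, HAND1, KDR and CDX4 were under 1 FPKM in unstored blastoderms and entered through the incubated library alone. Their ratios were thus above 0 by the entry rule, and the median and the count of higher members lean on them. TBXT (brachyury), the T-box factor that marks the streak, had 23.6 FPKM in incubated and 4.97 FPKM in unstored blastoderms (2.05). SNAI1, a repressor of epithelial genes during ingression, had 42.8 FPKM in incubated and 10.7 FPKM in unstored blastoderms (1.91). PDGFRA, a receptor of migrating mesoderm, had 23.1 FPKM in incubated and 5.92 FPKM in unstored blastoderms (1.80). The members most restricted to later mesoderm were at low FPKM. KDR, the VEGF receptor of blood vessel precursors, had 2.90 FPKM in incubated and 0.20 FPKM in unstored blastoderms (1.70). CDX4, a posterior homeobox gene, had 2.11 FPKM in incubated and 0.02 FPKM in unstored blastoderms (1.61). TBX6, a T-box gene of the streak and presomitic mesoderm, was the list's most abundant member, with 82.6 FPKM in incubated and 38.1 FPKM in unstored blastoderms (1.10). EOMES (0.26), GSC (0.40) and MIXL1 (0.97), 3 other early streak genes, did not reach 2-fold. The 2 members below 0 were SNAI2, a relative of SNAI1 (8.63 FPKM in incubated and 12.1 FPKM in unstored blastoderms, -0.44), and LMO2 (-0.59). None of the streak genes is Z-linked in the RefSeq table. Relative to the level bins of their members, the median was 0.40 for the streak list and 0.47 for the endoderm list.

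The Nodal, BMP, WNT, FGF, Notch and Hedgehog lists had medians above 0, as did all genes compared (0.12). Relative to the level bins of their members, the medians were 0.43 for Nodal and activin and 0.35 for BMP. They were near 0 for Notch (0.09), WNT (0.08), Hedgehog (-0.01) and FGF and ERK (-0.02). The FGF and Hedgehog medians changed sign under some alternative processing. Nodal and activin are TGF-beta family ligands that induce streak and endoderm, and BMPs act against the axis. Of 16 compared Nodal and activin genes, 5 were higher and none lower, with a median of 0.52. TGFBR1, a type I receptor of the TGF-beta family, had 103 FPKM in incubated and 35.8 FPKM in unstored blastoderms (1.5). GDF3, a ligand of the TGF-beta family, had 47.1 FPKM in incubated and 20.9 FPKM in unstored blastoderms (1.14). INHBB, an activin subunit, was higher at low FPKM (6.43 in incubated and 1.79 in unstored blastoderms, 1.41), and CER1 was also among them. Of the 16 genes, 4 are Z-linked.

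The BMP list had a median of 0.39 over 28 compared members, of which 6 were higher and none lower. The higher members were not the ligands. BMP7 (35.1 FPKM in incubated and 19.0 FPKM in unstored blastoderms, 0.85) and BMP4 (10.9 FPKM in incubated and 9.92 FPKM in unstored blastoderms, 0.12) stayed within 2-fold. BMPER, an extracellular BMP-binding protein, had 4.99 FPKM in incubated and 0.47 FPKM in unstored blastoderms (2.03), and the antagonist CHRD (chordin) had 7.35 FPKM in incubated and 2.76 FPKM in unstored blastoderms (1.15). SMAD6, an inhibitory SMAD, had 13.8 FPKM in incubated and 4.49 FPKM in unstored blastoderms (1.43). The targets MSX1 (77.8 FPKM in incubated and 32.1 FPKM in unstored blastoderms, 1.25) and MSX2 (7.06 FPKM in incubated and 2.09 FPKM in unstored blastoderms, 1.38) were higher, as was SMAD9 (1.30), a BMP-responsive SMAD. The BMP targets ID1 (-0.46), ID2 (0.26), ID3 (0.13), BAMBI (0.58) and, Z-linked, SMAD7 (0.93) did not reach 2-fold.

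WNT genes had a median of 0.30 over 35 compared members, with 4 higher and 1 lower, and 0.08 relative to the level bins of their members. Both counts were close to the shares over all genes compared (8.84% and 2.64%). WNT11, a ligand of the planar cell polarity branch (1.18), the receptor FZD10 (26.5 FPKM in incubated and 10.5 FPKM in unstored blastoderms, 1.25), the transcription factor LEF1 (18.1 FPKM in incubated and 8.21 FPKM in unstored blastoderms, 1.05) and the receptor-removing ligase RNF43 (1.06) were higher. The receptor FZD6 was lower, with 7.71 FPKM in incubated and 26.1 FPKM in unstored blastoderms (-1.64). CTNNB1, which encodes beta-catenin of both the WNT pathway and adherens junctions, had 501 FPKM in incubated and 990 FPKM in unstored blastoderms (-0.98), just inside 2-fold.

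In the FGF and ERK list (24 compared, median 0.16) 3 genes were higher and 2 lower. FGFR3 (29.7 FPKM in incubated and 10.5 FPKM in unstored blastoderms, 1.42) and FGFR1 (42.4 FPKM in incubated and 17.7 FPKM in unstored blastoderms, 1.21) were higher, with the ERK-induced EGR1 as the third. FGF8, a ligand of the streak, had 7.75 FPKM in incubated and 16.9 FPKM in unstored blastoderms (-1.04), and the intracellular FGF13 had 8.84 FPKM in incubated and 27.7 FPKM in unstored blastoderms (-1.54). FGF8 stood between 16.7 and 20.5 FPKM in the 3 stored libraries, so the incubated library was the lowest of the 5. Of 19 Notch genes none was higher and DLL4 (-1.09), a Delta ligand, was lower, with a median of 0.19. None of 6 compared Hedgehog genes passed 2-fold (median 0.20), and the ligand SHH was under 1 FPKM in both libraries. In the planar polarity list (15 compared, median 0.12) the Z-linked WNT5A receptor gene ROR2 (1.31) was higher and FZD6 lower, and in the Hippo list (16 compared, median -0.12) 3 were higher and 1 lower. TEAD4, the DNA-binding partner of YAP, was higher (9.5 FPKM in incubated and 2.80 FPKM in unstored blastoderms, 1.47), as were WWTR1 (TAZ, 1.23) and the giant cadherin DCHS1 (1.65). CCN2, a common YAP target, was lower (5.55 FPKM in incubated and 13.3 FPKM in unstored blastoderms, -1.12).

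Genes of retinoid and thyroid hormone supply had a median of 0.93 over 15 genes, with 6 higher, none lower and none Z-linked. Retinoic acid is made from vitamin A in steps of uptake and oxidation, and thyroid hormone is activated by deiodination. STRA6, a membrane carrier of retinol, had 4.06 FPKM in incubated and 0.46 FPKM in unstored blastoderms (1.79). RDH10, which oxidises retinol, had 19.97 FPKM in incubated and 8.90 FPKM in unstored blastoderms (1.08). ALDH1A2, which makes retinoic acid, had 12.6 FPKM in incubated and 4.25 FPKM in unstored blastoderms (1.37). Other enzymes of retinoid metabolism stayed within 2-fold, RDH11 at 0.47, DHRS3 at 0.24 and ALDH1A3 at -0.37. CYP26A1, which degrades retinoic acid, had 1.35 FPKM in incubated and 0.55 FPKM in unstored blastoderms (0.60). Among the receptors, RARB (1.08) was higher at low FPKM and RARA stood at 29.9 FPKM in incubated and 14.9 FPKM in unstored blastoderms (0.96). THRA, the thyroid hormone receptor alpha, had 10.4 FPKM in incubated and 1.89 FPKM in unstored blastoderms (1.97). DIO2, which activates thyroid hormone, had 24.5 FPKM in incubated and 9.67 FPKM in unstored blastoderms (1.26), and DIO3, which inactivates it, had 3.33 FPKM in incubated and 3.06 FPKM in unstored blastoderms (0.09). Relative to the level bins of its members the list's median was 0.66, and with a pseudocount of 5 it was 0.43.

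The extracellular matrix list held the most higher genes of any list. Fibronectin, laminins, collagen IV and hyaluronan form the basement membrane and the space through which cells of the streak migrate. Of 46 compared members, 19 were higher and none was lower, 40 had a ratio above 0, and the median was 0.68 (0.66 relative to the level bins of the members). Without the 4 Z-linked members the median was 0.63. FN1, fibronectin, was the most abundant of the higher members, with 135 FPKM in incubated and 44.8 FPKM in unstored blastoderms (1.58). ITGAV, an integrin subunit that binds fibronectin and vitronectin, had 60.1 FPKM in incubated and 7.24 FPKM in unstored blastoderms (2.89). Its partner ITGB3 had 37.7 FPKM in incubated and 13.4 FPKM in unstored blastoderms (1.43). Other partners and ligands in the list stayed within 2-fold, with VTN (vitronectin) at 0.66 and the integrin subunits ITGB5 at 0.60 and ITGB1 at -0.17.

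HAS2, which synthesises hyaluronan, had 63.9 FPKM in incubated and 15.5 FPKM in unstored blastoderms (1.98), and HAPLN1, a Z-linked gene for a hyaluronan link protein, had 5.22 FPKM in incubated and 1.12 FPKM in unstored blastoderms (1.55). Basement membrane collagens were higher, with COL4A6 at 30.2 FPKM in incubated and 10.1 FPKM in unstored blastoderms (1.5), COL4A2 at 1.53 and COL4A1 at 1.07 on the log2 scale. COL1A2, a chain of fibrillar collagen I, had 23.2 FPKM in incubated and 4.79 FPKM in unstored blastoderms (2.07), and the fibrillar COL5A1 (1.19) and COL5A2 (1.61) were also higher. FBLN1, a fibulin of basement membranes, had 30.0 FPKM in incubated and 7.44 FPKM in unstored blastoderms (1.88). Proteases that cut matrix or shed membrane proteins were among the higher members. ADAM19 had 22.4 FPKM in incubated and 2.43 FPKM in unstored blastoderms (2.77), and ADAMTS9 had 10.3 FPKM in incubated and 1 FPKM in unstored blastoderms (2.49). MMP9 (1.75), MMP16 (1.09), ADAM9 (1.05) and the inhibitor TIMP2 (1.22) were also higher. SERPINH1, the chaperone of collagen in the endoplasmic reticulum, which belongs to the heat shock list, had 114 FPKM in incubated and 27.6 FPKM in unstored blastoderms (2.01), against 47.0, 6.27 and 9.49 FPKM in blastoderms stored at 4, 16 and 24 °C.

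**Figure D3:**
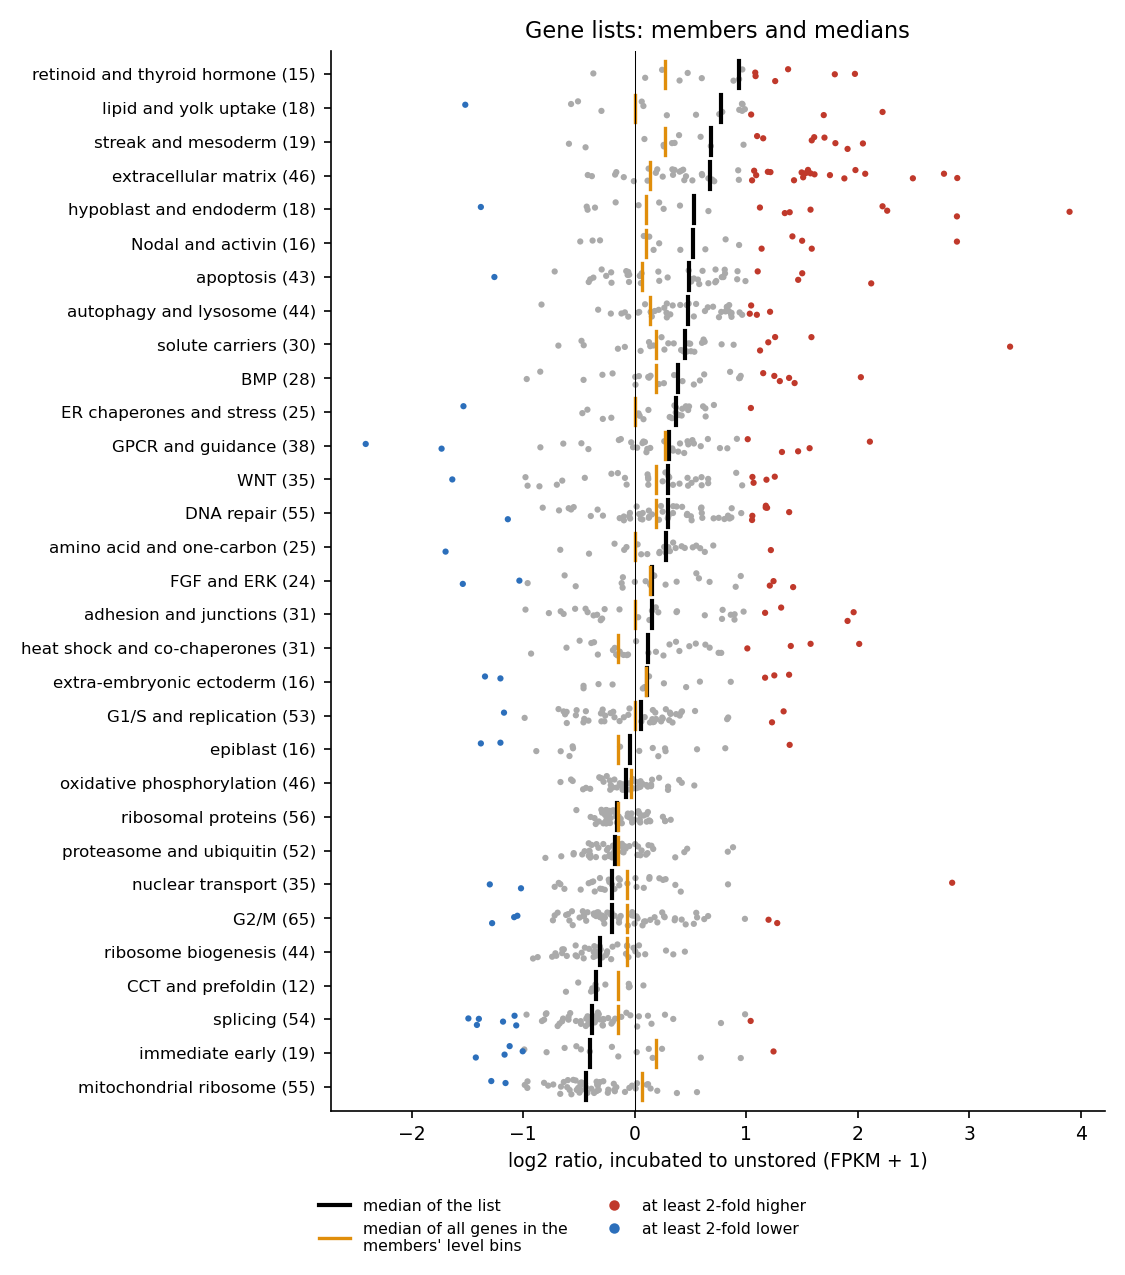
Log2 ratios of FPKM + 1, incubated to unstored, for the compared members (points) of 31 gene lists, with the number of members in brackets and lists ordered by their median (black bars). Orange bars are the median of all genes in the members' level bins: the retinoid and extracellular matrix lists (0.93 and 0.68) lie to the right of theirs, the splicing and mitochondrial ribosome lists (-0.39 and -0.44) to the left, and the ribosomal protein list (-0.16) on it.

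Adhesion genes did not follow the matrix genes. Of 31 compared genes of junctions and of the epithelial to mesenchymal transition, 4 were higher and none lower, with a median of 0.15, or 0.01 relative to the level bins of the members. DSG2, a desmosomal cadherin, had 11.7 FPKM in incubated and 2.26 FPKM in unstored blastoderms (1.96), and GJA1, the gap junction protein connexin 43, had 93.5 FPKM in incubated and 37.1 FPKM in unstored blastoderms (1.31). SNAI1 and GRHL2 were the others, while SNAI2 (-0.44) and VIM (vimentin, -0.34) stood below 0. Of the other abundant members, all within 2-fold, CLDN1 (claudin 1) stood at -0.42, EPCAM at -0.66 and the catenin CTNND1 at -0.77, while JUP (plakoglobin, 95.3 FPKM in incubated and 50.8 FPKM in unstored blastoderms) stood at 0.89 and CDH1 (E-cadherin) at 0.21. Of 39 actin and myosin genes, ANLN (anillin, 79.1 FPKM in incubated and 32.0 FPKM in unstored blastoderms, 1.28), a scaffold of the cleavage furrow, was higher. TMOD1, a Z-linked gene for a cap of actin filament ends, was lower (13.2 FPKM in incubated and 49.8 FPKM in unstored blastoderms, -1.84). The median of that list was 0.16.

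Genes that respond to temperature and stress gave a mixed picture. RBM3 encodes a cold-inducible RNA-binding protein, and it had 101 FPKM in incubated blastoderms, the lowest of the 5 libraries, against 299 FPKM in unstored ones (-1.56). The stored libraries had between 176 and 246 FPKM. The RefSeq table gives CIRBP as an older name of the gene it calls RBM3, so the related cold-inducible genes are not told apart by name here. None of the other 12 compared genes of the cold and clock list passed 2-fold, and the list's median was 0.02.

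Of 31 heat shock and co-chaperone genes, some of them of the endoplasmic reticulum, 4 were higher and none lower, with a median of 0.12. The median was -0.01 with size factors and 0.26 relative to the level bins of the members, so the direction of the list depends on the scaling. DNAJA1, a Z-linked gene for a J-domain partner of HSP70, had 117 FPKM in incubated and 38.5 FPKM in unstored blastoderms (1.58), and BAG2, a co-chaperone, was at 1.40. SERPINH1, described above, and HSPB8 (1.01) were the other higher members. HSPA8 and HSP90AA1, the constitutive HSP70 and an HSP90, gained more FPKM than any other named gene. HSPA8 had 4200 FPKM in incubated and 2455 FPKM in unstored blastoderms (0.77), and HSP90AA1 had 4182 FPKM in incubated and 2980 FPKM in unstored blastoderms (0.49). In the libraries stored at 16 and 24 °C both were well under the unstored level, HSPA8 at 949 and 1085 FPKM and HSP90AA1 at 639 and 985 FPKM. The mitochondrial chaperonins stood on the other side, HSPE1 at -0.49 and HSPD1 at -0.33. The cytosolic chaperonin CCT and prefoldin, which fold actin and tubulin, had 11 of 12 members below 0 and a median of -0.35, with no member past 2-fold.

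Chaperones and enzymes of the endoplasmic reticulum had a median of 0.37 over 25 compared genes, 20 of them above 0. EDEM1, which sends misfolded glycoproteins to degradation, was higher (1.04). The stress kinase EIF2AK3 (PERK) was lower, with 1.32 FPKM in incubated and 5.73 FPKM in unstored blastoderms (-1.54). Immediate early genes, which are transcribed within minutes of a stimulus, had a median of -0.40 over 19 members, with 4 lower and 1 higher. Of these 19, 7 lay above 0. JUN (-0.15), FOS (-0.79) and MYC (-0.48), the most abundant member, stayed within 2-fold. DUSP1, a phosphatase of stress-activated kinases, had 6.24 FPKM in incubated blastoderms, the lowest of the 5 libraries, against 18.5 FPKM in unstored ones (-1.43). The library stored at 16 °C stood apart for DUSP1 at 97.1 FPKM, and the other stored libraries were at 18.9 (4 °C) and 18.2 FPKM (24 °C). FOSL2, a FOS family factor, had 33.6 FPKM in incubated and 76.7 FPKM in unstored blastoderms (-1.17). DUSP10 (-1.01) and CCN2 were the other lower members and EGR1 was the higher one (4.47 FPKM in incubated and 1.31 FPKM in unstored blastoderms, 1.24).

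Genes of RNA processing and protein synthesis lay at or below the level of other genes. Splicing factors had 45 of 54 compared members below 0, 6 lower and 1 higher, with a median of -0.39, or -0.33 relative to the level bins of the members. PTBP1, a repressor of exon inclusion, had 89.6 FPKM in incubated and 254 FPKM in unstored blastoderms (-1.49). SRSF2, an SR protein that recognises exons, had 106 FPKM in incubated and 286 FPKM in unstored blastoderms (-1.42). HNRNPDL (-1.18), SRSF5 (-1.40) and PTBP2 (-1.08), other RNA-binding regulators, were lower too. HNRNPK, a Z-linked gene, had 130 FPKM in incubated and 272 FPKM in unstored blastoderms (-1.06), opposite to the Z genes as a group, but it has a close copy on the W chromosome, HNRNPKL, and reads shared between them make both uncertain. The exception was SRSF7, an SR protein, with 60.4 FPKM in incubated and 28.9 FPKM in unstored blastoderms (1.04).

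The mitochondrial ribosome list had the lowest median of all lists, -0.44 over 55 compared members, 47 of them below 0, and -0.45 relative to their level bins. MRPL46 (16.3 FPKM in incubated and 41.2 FPKM in unstored blastoderms, -1.29) and MRPS23 (15.7 FPKM in incubated and 36.3 FPKM in unstored blastoderms, -1.16) were lower. The most abundant member, MRPL3, had 87.7 FPKM in incubated and 76.2 FPKM in unstored blastoderms (0.20). Ribosome biogenesis genes had a median of -0.32 over 44 members and none past 2-fold. NCL, nucleolin, had 714 FPKM in incubated and 1171 FPKM in unstored blastoderms (-0.71). The 56 cytosolic ribosomal protein genes had a median of -0.16 and none past 2-fold, which is -0.01 relative to other genes of the same high level. Translation factors and tRNA synthetases (38 compared, median -0.13) had 1 higher member, the seryl-tRNA synthetase SARS1 (1.19). The proteasome and ubiquitin list (52 compared, median -0.18), the RNA decay list (41 compared, median -0.12) and the respiratory chain list (46 compared, median -0.07) had no member past 2-fold. In the nuclear transport list (35 compared, median -0.20) the import receptor TNPO1, a Z-linked gene, was higher (9.78 FPKM in incubated and 0.50 FPKM in unstored blastoderms, 2.85), and the importin KPNA7 (-1.30) and the nucleoporin NUP210 (-1.02) were lower. TNPO1 had 4.55 to 15.2 FPKM in the stored libraries, so it was the unstored library that stood apart.

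Few cell cycle genes passed 2-fold. Of 65 G2/M genes, 3 were lower and 2 higher, 42 lay below 0 and the median was -0.21. Over all genes compared, 2.64% were lower and 8.84% higher. CCNB1, the mitotic cyclin B1, had 169 FPKM in incubated and 359 FPKM in unstored blastoderms (-1.08). CKS1B, a subunit of cyclin-dependent kinases, had 54.2 FPKM in incubated and 133 FPKM in unstored blastoderms (-1.28). PTTG2, a securin gene, was at -1.05. ANLN and the centromere protein CENPI (1.2) were the higher members, and the kinases CDK1 (-0.59) and PLK1 (-0.03) stayed within 2-fold. Genes of G1/S and replication had a median of 0.06 over 53 members, with the replication licensing inhibitor GMNN lower (28.7 FPKM in incubated and 66.0 FPKM in unstored blastoderms, -1.17) and the origin subunit ORC5 (1.23) and the CDK inhibitor CDKN1A (1.33) higher.

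Of 55 DNA repair genes, 6 were higher and 1 lower, close to the shares over all genes compared (8.84% and 2.64%). The DNA repair median was 0.30, or 0.11 relative to the level bins of the members. The damage kinase ATM (8.63 FPKM in incubated and 2.69 FPKM in unstored blastoderms, 1.38) was higher, and the base excision nuclease APEX1 (46.6 FPKM in incubated and 104 FPKM in unstored blastoderms, -1.14) was lower. XPA, a Z-linked nucleotide excision repair gene and the most abundant of the higher members, had 136 FPKM in incubated and 65.3 FPKM in unstored blastoderms (1.05). Of 43 apoptosis genes, 4 were higher and 1 lower, close to the shares over all genes compared (8.84% and 2.64%). Their median was 0.48, or 0.30 relative to the level bins of the members. The higher ones were the protease CAPN1 (27.2 FPKM in incubated and 5.48 FPKM in unstored blastoderms, 2.12), AIFM2 (1.5), the initiator caspase CASP2 (1.46) and the BH3-only protein BMF (65.1 FPKM in incubated and 29.8 FPKM in unstored blastoderms, 1.10). GADD45A, a growth arrest gene, was the lower one (11.4 FPKM in incubated and 28.8 FPKM in unstored blastoderms, -1.26). CYCS (cytochrome c, -0.40) was the most abundant member and did not reach 2-fold. The chromatin list (46 compared, median 0.13) had 3 higher members, among them the maintenance methyltransferase DNMT1 (29.6 FPKM in incubated and 13.5 FPKM in unstored blastoderms, 1.08) and the Z-linked remodelling ATPase SMARCA2 (14.1 FPKM in incubated and 1.34 FPKM in unstored blastoderms, 2.69). The 2 lower members were the acetyltransferases KAT6B (-1.36) and KAT7 (35.8 FPKM in incubated and 83.2 FPKM in unstored blastoderms, -1.19). Both chromatin counts were near the shares over all genes compared.

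Of the genes that take up and digest yolk, 3 were higher and 1 lower. The list of lipid uptake and yolk digestion had a median of 0.77 over 18 compared members, 5 of them Z-linked, and of 0.55 without the Z-linked members. Without the filter on low values, which adds members under 1 FPKM in both libraries, the median was 0.077. CTSV, a Z-linked lysosomal protease gene, had 937 FPKM in incubated and 454 FPKM in unstored blastoderms (1.04), and ANPEP, an aminopeptidase of absorptive membranes, had 2.85 FPKM in incubated and 0.19 FPKM in unstored blastoderms (1.69). APOA1 was the third higher member. Several others stood just under 2-fold, among them LGMN, a lysosomal protease (0.96), the endocytic receptor LRP2 (0.99) and, Z-linked, the lipoprotein lipase LPL (0.96), the lipid droplet protein PLIN2 (0.97) and the lipoprotein receptor VLDLR (0.94). Others lay far from it, such as the fatty acid binding proteins FABP3 (-0.51) and FABP7 (-0.57) and the lysosomal protease CTSD (0.29). ABCA1, which exports cholesterol and is also Z-linked, was lower, with 34.6 FPKM in incubated and 101 FPKM in unstored blastoderms (-1.52). The stored libraries had between 82.0 and 136 FPKM of ABCA1, so the incubated library was the lowest. The autophagy and lysosome list had 38 of 44 compared members above 0 and a median of 0.47, or 0.40 relative to the level bins of the members. In it 4 genes were higher, close to the share over all genes compared (8.84%), and none lower. They were CTSV, the autophagy protease ATG4A (1.03), the transcription factor MITF (1.21) and the proton pump subunit ATP6AP1 (18.0 FPKM in incubated and 7.90 FPKM in unstored blastoderms, 1.09).

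Solute carriers had a median of 0.45 over 30 compared members, or 0.25 relative to their level bins, with 5 higher and none lower. SLC1A3, a Z-linked glutamate transporter gene, had 14.8 FPKM in incubated and 0.53 FPKM in unstored blastoderms (3.36), the second highest ratio of all named genes. The iron exporter SLC40A1 (9.37 FPKM in incubated and 2.46 FPKM in unstored blastoderms, 1.58), the glutamate transporter SLC1A2 (1.26), the glucose transporter SLC2A2 (1.2) and SLC36A4 (1.12), an amino acid carrier, were higher at lower FPKM. SLC1A3, SLC1A2, SLC2A2 and SLC36A4 were under 1 FPKM in unstored blastoderms and entered through the incubated library alone. The count of higher carriers therefore rests largely on the entry rule. In sterol and fatty acid synthesis (22 compared, median 0.20) 3 members were higher, none was lower, and the higher ones included the late cholesterol enzyme DHCR7 (1.01) and the fatty acid elongase ELOVL5 (97.7 FPKM in incubated and 46.9 FPKM in unstored blastoderms, 1.04). Glycolysis and citrate cycle genes had a median of 0.04 over 39 members, with 2 higher and 1 lower. PFKFB4, which makes an activator of phosphofructokinase, had 22.6 FPKM in incubated and 7.08 FPKM in unstored blastoderms (1.54), and PFKM (1.04) was the other higher member. Of 25 amino acid and one-carbon genes (median 0.28), the Z-linked glycine cleavage enzyme GLDC (1.22) was higher and MTHFD1L (-1.70) lower. MTHFD1L had 0.24 FPKM in incubated and 3.02 FPKM in unstored blastoderms. After storage at 4, 16 and 24 °C it had 0.03, 0 and 2.56 FPKM, so its ratio is uncertain. Of 32 redox and hypoxia genes (median -0.05), the hypoxia-induced NDRG1 (46.7 FPKM in incubated and 16.5 FPKM in unstored blastoderms, 1.44), the thioredoxin reductase TXNRD1 (1.37) and the heme oxygenase HMOX1 (1.09) were higher and none was lower. The higher count of this list was near the share over all genes compared (8.84%). The vesicle traffic list (62 compared, median 0.10) had 4 higher members, led by the endosomal SNARE STX7 (14.8 FPKM in incubated and 4.16 FPKM in unstored blastoderms, 1.62). That count was near the share over all genes compared (8.84%).

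Among receptors and guidance molecules, 5 of 38 compared were higher and 2 lower, with a median of 0.30, or 0.12 relative to their level bins. Over all genes compared the shares were 8.84% higher and 2.64% lower. EDNRB, an endothelin receptor, had 14.7 FPKM in incubated and 2.65 FPKM in unstored blastoderms (2.11). ENPP2 (autotaxin), which makes lysophosphatidic acid, had 56.7 FPKM in incubated and 19.9 FPKM in unstored blastoderms (1.46), and LPAR1, a Z-linked gene for a receptor of that lipid, had 3.86 FPKM in incubated and 0.64 FPKM in unstored blastoderms (1.57). APLNR, the apelin receptor of migrating mesendoderm, had 18.1 FPKM in incubated and 6.65 FPKM in unstored blastoderms (1.32). TACR1, the receptor of substance P, had 1.52 FPKM in incubated and 12.4 FPKM in unstored blastoderms (-2.41), and PTGER3, a prostaglandin receptor, had 2 FPKM in incubated and 8.97 FPKM in unstored blastoderms (-1.73). Other homeobox, SOX and FOX genes were mostly too low to compare, with 25 of 66 named members entering, 4 of them higher and 3 lower. PITX3, a homeobox gene, had 8.92 FPKM in incubated and 0.74 FPKM in unstored blastoderms (2.51). SOX14 had 2.90 FPKM in incubated and 16.7 FPKM in unstored blastoderms (-2.18), and the forkhead genes FOXL2 (-1.53) and FOXB1 (-1.75) were lower as well.

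The lists held 1446 of the 7389 genes compared, and 130 of the 653 higher and 40 of the 195 lower genes, so most genes past 2-fold, like most genes compared, belong to none of them. Of the 20 highest ratios, 4 were of Z-linked genes (SLC1A3, CER1, TNPO1 and SMARCA2), and in 16 of the 20 the incubated library was the highest of the 5. BPIFCB, a member of the BPI fold family, had 146 FPKM in incubated and 21.4 FPKM in unstored blastoderms (2.71). ST3GAL1, a sialyltransferase, had 37.8 FPKM in incubated and 5.60 FPKM in unstored blastoderms (2.56). FAM46C, a poly(A) polymerase that stabilises messages, had 21.3 FPKM in incubated and 3.17 FPKM in unstored blastoderms (2.42). CCL20 (2.31), a chemokine, APOA2 (2.28), an apolipoprotein, GABRD (2.28), a GABA receptor subunit, ASIC1 (2.24), an acid-sensing channel, and ANXA8L1 (2.40), an annexin, were among the remaining ones.

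Of the 20 lowest ratios, the incubated library was the lowest of the 5 in 14. TSC22D1, a leucine zipper protein induced by TGF-beta, had 7.5 FPKM in incubated and 61.6 FPKM in unstored blastoderms (-2.88). It stood at 77.8 FPKM after storage at 4 °C but at 10.5 and 10.8 FPKM after 16 and 24 °C. The same division of libraries held for TACR1, SOX14, VGLL2 (14.1 FPKM in incubated and 54.1 FPKM in unstored blastoderms, -1.87), a cofactor of TEAD factors, and TMOD1, all of which had levels near the unstored one at 4 °C and low levels at 16 and 24 °C. FAM46B, a relative of FAM46C, had 11.2 FPKM in incubated and 54.1 FPKM in unstored blastoderms (-2.18), so the pair moved in opposite directions. The potassium channel KCNK5 (12.2 FPKM in incubated and 44.9 FPKM in unstored blastoderms, -1.80), the immunoglobulin-like ILDR2 (-1.88), NRF1 (-1.76), a regulator of nuclear genes for mitochondria, the actin-severing SCIN (-1.69) and the corepressor RUNX1T1 (-1.58) followed. HIST1H4D (-1.65), a histone H4 gene, shares reads with near-identical copies and is uncertain.

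Most of the 10 largest gains in FPKM, and all of the 10 largest losses, were of abundant genes within 2-fold. After HSPA8 and HSP90AA1, the largest gains were of TMSB4X, an actin-binding thymosin (1337 FPKM in incubated and 842 FPKM in unstored blastoderms, 0.67), CTSV, which was past 2-fold (1.04), and ACTB, cytoplasmic actin (2374 FPKM in incubated and 2039 FPKM in unstored blastoderms, 0.22). NOXO1, an organiser of NADPH oxidase, was also past 2-fold, with 271 FPKM in incubated and 63.4 FPKM in unstored blastoderms (2.08). The protein disulphide isomerase P4HB (0.43) and the Z-linked PLPP1 (0.76), a lipid phosphatase, and RPS6 (0.27), a ribosomal protein, were also among the 10 largest gains. Besides CTNNB1, NCL, HSPE1, CLDN1 and EPCAM, the 10 largest losses held the translation factor EIF4G2 (-0.59) and the nucleolar protein NPM1 (-0.31). The remaining 3 were ENS-1 (3333 FPKM in incubated and 3986 FPKM in unstored blastoderms, -0.26), ERNI (-0.25) and ENS-3 (-0.20), which belong to a multicopy family of retroviral origin expressed in early embryonic cells, share reads and are uncertain. ENS-1 is among the W genes of the RefSeq table.

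Against the whole series, the incubated library stood apart in 1 direction more than in the other. The incubated library was at least 2-fold above each of the 4 other libraries for 100 genes (1.35%) and at least 2-fold below each for 15 genes (0.203%). Of the 653 higher genes, 498 (76.3%) were also above every stored library, and of the 195 lower genes, 131 (67.2%) were below every stored library. Over all genes compared, the incubated library was the highest of the 5 for 28.3% and the lowest for 16.4%. These counts share the incubated library and the unstored level that chose the genes, so they are a description. They were not taken relative to the level bins, so the part that the level of the genes plays in them was not tested. HNF4A was furthest above, 2.03 on the log2 scale over the next library, which was the one stored at 4 °C with 5.69 FPKM. The epithelial calcium channel TRPV6 (10.8 FPKM in incubated and 1.64 FPKM in unstored blastoderms) lay 2.0 above the next library, and SLC1A3 lay 1.93 above it. MOGAT2, an enzyme of dietary fat absorption, had 17.5 FPKM in incubated and 3.05 FPKM in unstored blastoderms, against 4.89, 0.64 and 1.75 FPKM after storage at 4, 16 and 24 °C. NNT, a Z-linked gene for the mitochondrial transhydrogenase, had 48.4 FPKM in incubated and 14.8 FPKM in unstored blastoderms, against 5.91 to 10.6 FPKM after storage. PHC1, a Polycomb protein, had 51.5 FPKM in incubated and 11.5 FPKM in unstored blastoderms, against 8.68 to 16.3 FPKM after storage. CALD1 (1.62 above the next library), an actin-binding regulator, the Z-linked CPLX1 (1.6) and the glycosyltransferase B3GNT9 (1.6) were also among the 10 furthest above.

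MERTK, a receptor kinase by which cells recognise and engulf dying cells, was furthest below. It had 9.37 FPKM in incubated and 31.8 FPKM in unstored blastoderms (-1.66), and 34.99, 29.7 and 32.4 FPKM after storage at 4, 16 and 24 °C. The 4 libraries that were not incubated therefore lay close together for MERTK. The others were DUSP1, ABCA1, FZD6 and GADD45A, described above, the membrane protein TM7SF3 (-1.37 against unstored), the lysosome-positioning BORCS6 (-1.14), the ubiquitin ligase PELI2 (-1.61), huntingtin HTT (-1.04) and the mitochondrial formyltransferase MTFMT (-1.02).

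**Figure D4:**
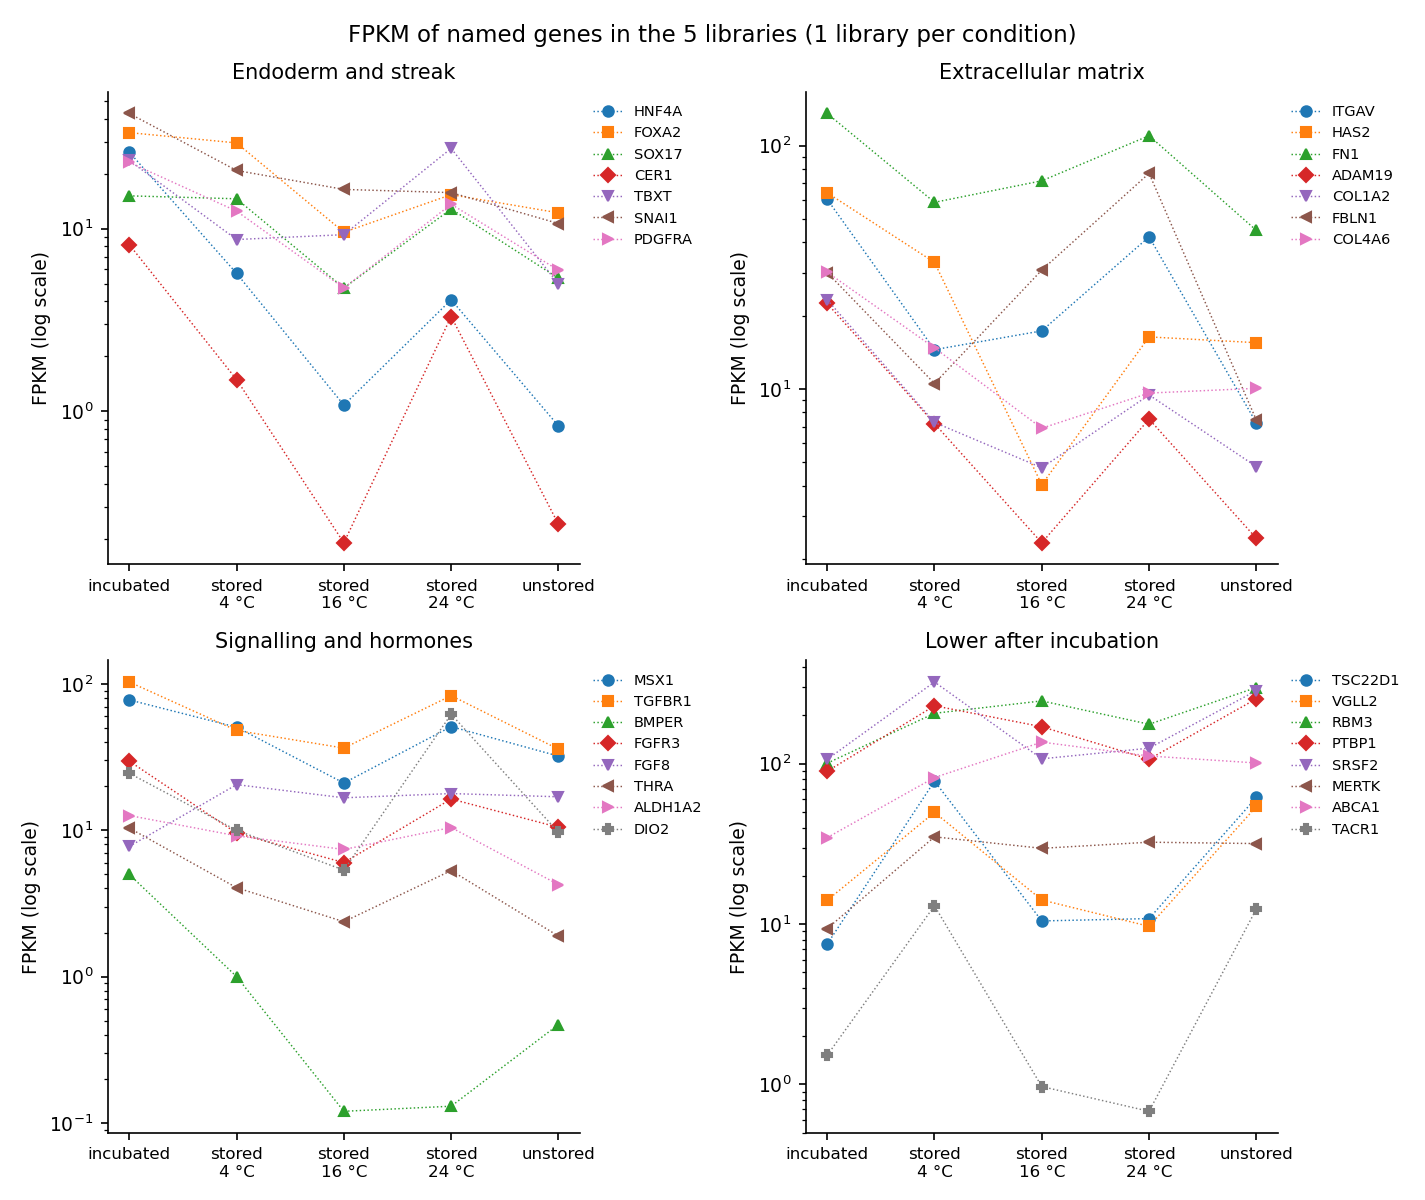
FPKM on log axes of named genes in each of the 5 libraries, with 1 library per condition and the incubated library at the left and the unstored one at the right of each panel. HNF4A, CER1 and ADAM19 are highest in the incubated library and MERTK and ABCA1 lowest there, whereas TSC22D1, VGLL2 and TACR1 are low in the incubated library and at 16 and 24 °C, and DIO2 and FBLN1 are highest at 24 °C (62.0 and 76.9 FPKM).

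Several genes that were higher after incubation were higher still after storage at 24 °C. TBXT had 23.6 FPKM in incubated blastoderms, 27.5 FPKM at 24 °C and 4.97 FPKM in unstored blastoderms. APOA1 had 103 FPKM in incubated blastoderms, 198 FPKM at 24 °C and 21.4 FPKM in unstored blastoderms. DIO2, FBLN1 and ITGB3 (47.7 FPKM at 24 °C) showed the same order. HAS2 did not, with 63.9 FPKM in incubated blastoderms, 16.4 FPKM at 24 °C, 4.04 FPKM at 16 °C and 15.5 FPKM in unstored blastoderms. GJA1 had 93.5 FPKM in incubated blastoderms, 19.1 FPKM at 24 °C, 7.09 FPKM at 16 °C and 37.1 FPKM in unstored blastoderms. These genes were named by the rule, and their grouping by the stored libraries was made after the values were seen.

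Genes listed at 0 in 1 of the libraries have no ratio, because a 0 in such files can be a failed estimate. There were 11 of them with at least 1 FPKM in the other library, and 2 had at least 5 FPKM. ZC3H13, a zinc finger protein of RNA methylation, had 11.1 FPKM in incubated blastoderms and was listed at 0 in unstored ones. The ubiquitin protease USP38 had 7.27 FPKM in incubated blastoderms and was listed at 0 in unstored ones.

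Markers of cell types that a blastoderm should hold few or none of were mostly low, with exceptions given below. Of 18 leukocyte genes, 11 were under 1 FPKM in both libraries, among them the pan-leukocyte marker PTPRC (0.49 FPKM in incubated and 0.20 FPKM in unstored blastoderms), and LCP2 was listed at 0 in both. Their FPKM summed to 31.0 in incubated and 11 in unstored blastoderms. Of the 7 compared, 4 were higher: CD40, a receptor of the TNF family (9.97 FPKM in incubated and 0.91 FPKM in unstored blastoderms, 2.52), the actin bundler LCP1 (1.44), and the chemokines CCL4 (1.22) and IL8L1 (1.04). CD3E, a T cell receptor subunit, stayed within 2-fold (4.28 FPKM in incubated and 2.03 FPKM in unstored blastoderms, 0.80), and the T cell markers CD3D, CD4 and CD8A and the myeloid factor SPI1 were under 1 FPKM in both libraries. Whether any leukocytes contribute to the 4 higher genes was not tested. Of 11 erythroid genes, 8 were under 1 FPKM in both, 4 were listed at 0 in both, and the sums were 14.8 FPKM in incubated and 17.4 FPKM in unstored blastoderms. Egg white genes summed to 7.44 FPKM in incubated and 5.71 FPKM in unstored blastoderms, with ovalbumin (OVAL) under 1 FPKM in both, and 0 of the 3 compared passed 2-fold. Yolk, liver and oocyte genes summed to 8.76 FPKM in incubated and 9.78 FPKM in unstored blastoderms, with 0 of the 2 compared past 2-fold. The germ cell genes DDX4 (Z-linked, 4.58 FPKM in incubated and 9.63 FPKM in unstored blastoderms, -0.93) and DAZL (2.16 FPKM in incubated and 5.16 FPKM in unstored blastoderms, -0.96) stayed within 2-fold, and of the 9 compared genes of that list only the ligand KITLG (1.07) passed it. Of 13 compared genes of differentiated muscle and nerve, 4 were higher and none lower: CNTN2 (5.82 FPKM in incubated and 0.21 FPKM in unstored blastoderms, 2.49), an axonal adhesion molecule, and the muscle genes MYL3 (11.1 FPKM in incubated and 3.58 FPKM in unstored blastoderms, 1.41), TNNT2 (1.30) and MYH7 (1.18). MYOD1, the master factor of skeletal muscle, was under 1 FPKM in both libraries. The muscle and nerve genes summed to 67.65 FPKM in incubated and 40.99 FPKM in unstored blastoderms. The germ cell genes summed to 45.57 FPKM in incubated and 51.39 FPKM in unstored blastoderms. Both lists thus had larger sums than the leukocyte, erythroid, egg white and yolk lists.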

How the data were processed

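The comparison uses 1 poly(A) RNA library of incubated and 1 of unstored chicken blastoderms, with 3 libraries of stored ones beside them. The authors deposited FPKM per RefSeq transcript accession, per the file headers, with 2 decimals. The submitters' processing notes name the build galGal4 and the tools Cufflinks 2.0.2 and TopHat2 2.0.8, with no role for each. FPKM carry no counts, so depth and counting error are unknown. Accessions were matched without version to a RefSeq table of assembly GRCg7b, from which no coordinates were taken: 12609 of 32188 rows (39.2%) received a symbol, 636 with the same version. Rows of a symbol were summed, including 62 rows that repeat an accession with other values. Rows with a symbol carried 70.4% to 72.0% of a library's FPKM, and 8510 of 10102 genes had 1 row. A row without a symbol may be another transcript of a named gene, so a gene's ratio can rest on part of its transcripts. How often this holds was not tested.

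Ratios are log2(FPKM + 1), incubated minus unstored, without rescaling. No test was possible with 1 library per condition. The 52 gene lists, of which 42 members were found through an older symbol, and the members were chosen with earlier results of these data known. Named genes had a proper symbol, FPKM above 0 in both libraries and at least 5 in 1. They were the 20 highest and 20 lowest ratios, the 10 largest gains and losses of FPKM, the 10 furthest above and below all 4 other libraries, up to 5 listed at 0 in 1 library, and in each list the members past 2-fold and the most abundant one. Some genes so taken are not reported here, and other list members are named as examples, chosen after their values were seen. The counts were checked on simulated data. Calculations used Python 3.11.15, pandas 2.3.3 and numpy 2.4.6.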

Additional observations from a re-analysis of the deposited data

How the results depend on the processing

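Of the 40 genes with the highest and lowest ratios, 37 stayed past 2-fold under every alternative in which they entered. FOXB1, PTGER3 and HIST1H4D did not with a pseudocount of 5. These genes were chosen for extreme ratios in the same libraries, so this does not show that they would repeat. Among other named genes past 2-fold, CTSV, CPLX1, B3GNT9, TM7SF3, BORCS6, HTT and MTFMT fell within it under some alternative, HTT as far as -0.59. Counts moved more. Higher and lower genes numbered 1049 and 333 with a pseudocount of 0.1, 160 and 68 with a pseudocount of 5, and 345 and 339 relative to the level bin. With a mean FPKM of at least 5 there were 364 higher genes, and over every deposited row, named or not, there were 1544 higher and 705 lower. The median of all genes was -0.0041 with size factors and, by construction, 0 relative to the level bins. Genes at least 2-fold above each other library numbered 199 and 18 with pseudocounts of 0.1 and 5 and 55 with a mean FPKM of at least 5, and those below each numbered 44 and 3 with the same pseudocounts. Of the 52 list medians, 37 kept their sign under every alternative, 22 above and 15 below 0. The lowest medians over the alternatives were under the reported ones by more than 1.5 times for several lists, at 0.24 for hypoblast and endoderm, 0.28 for streak and mesoderm, 0.17 for Nodal and activin, 0.26 for apoptosis and 0.25 for solute carriers. Of the lists that changed sign, 3 lay beyond 0.1 as reported and beyond 0.1 on the other side under an alternative. The neural list was at 0.14 over genes with 1 matched row, the homeobox list at -0.10 and the yolk, liver and oocyte list at 0.44 with a mean FPKM of at least 5, and the cause was not tested. The alternatives relative to level bins, without Z and W genes and over every row were added after seeing the data. No paired analysis was possible because each condition has 1 library. Unknown depth limits all genes of low FPKM.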

Other observations

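Transcripts of 6 genes moved in opposite directions, out of 292 genes with 2 or more named rows of at least 5 FPKM, so that their summed ratio hides a difference between rows. SLC39A10, a zinc transporter, had 1 row at 21.5 FPKM in incubated and 2.76 FPKM in unstored blastoderms (log2 ratio 2.58) and another at 2.11 FPKM in incubated and 7.39 FPKM in unstored blastoderms (-1.43). ARHGAP17, a GTPase-activating protein, had a row at 9.79 FPKM in incubated and 1.53 FPKM in unstored blastoderms (2.09) and another at 2.81 FPKM in incubated and 9.09 FPKM in unstored blastoderms (-1.41). CLASP1, which stabilises microtubule ends, had rows at 1.5 and -1.18 on the log2 scale. MDM4, an inhibitor of p53, had a row at 22.6 FPKM in incubated and 47.4 FPKM in unstored blastoderms (-1.04) beside rows at 0.83 and 1.51. NF1, a brake on RAS, had rows at 1.57 and -1.13, and PLAA, a ubiquitin-binding protein on the Z chromosome, had rows at 1.49 and -1. FPKM of transcripts of the same gene are divided by a model of shared reads, and the accessions were matched without their version, so whether splicing differed was not tested.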
